A study of Mus musculus with 51 samples.

Results

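E12.5 forelimb was set against E13.5 hindlimb, a hindlimb taken 1 day later, to ask which differences between the limbs persist and which reverse against limbs of the same stage. The comparison rested on 10 of the 51 arrays of the series, 5 titled Forelimb E12.5 and 5 titled Hindlimb E13.5. All were from embryos of the FVB mouse strain, wild type, with no treatment named, and each array held RNA of the whole limb bud of 1 embryo that was not pooled. Hindlimb E12.5 (5 arrays) and Forelimb E13.5 (5 arrays) supplied the same-stage comparisons. The replicates of a stage came from 1 litter, so stage and litter cannot be told apart, and p-values measure the spread between littermates.

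The forelimb bud forms before the hindlimb bud, and the hindlimb remains behind it in development for the rest of limb outgrowth, so that limbs of 1 embryo differ in maturity as well as in type. Limb type is marked by a small set of transcription factors: Tbx5 is restricted to the forelimb field, while Tbx4, Pitx1 and Isl1 belong to the hindlimb field, and Hox genes follow the position of each limb along the trunk. At these stages mesenchymal condensations turn into cartilage, the first bone and tendon matrix is laid down, and muscle precursors that migrated from the somites fuse into contractile fibres. A comparison across a day therefore mixes limb type with limb age, and each gene is given below in the offset and the same-stage comparisons.

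Limb type was checked on every array first, because the array titled Forelimb E12.5 replicate 5 carries a source name and tissue label of hindlimb. Its Tbx5 log2 intensity was 9.77, beside 9.67 to 9.75 in the other 4 forelimb arrays, and its Pitx1, Tbx4 and Hoxc10 values of 5.52, 6.77 and 4.40 also lay with the forelimbs. The titles were used. Without the 2 arrays of the series whose labels differ from their titles, 132 genes were higher and 142 lower in E12.5 forelimb, 11 persisted and 14 flipped, by the definitions given below. Correlations between arrays of 1 group ranged from 0.993 to 0.998 over all genes in the 4 groups.

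Promoter sequences are shown for genes on either side of the question, those that kept their limb difference and those that reversed it. Of 11 persisting genes, 3 had an entry in the RefSeq promoter table (build GRCm38.p6, 300 bases around the transcript start, most of them before it): Tbx4 at chr11:85896515-85896814 on the plus strand, Isl1 at chr13:116309639-116309938 on the minus strand and Hoxc4 at chr15:103034145-103034444 on the plus strand. Of 17 flipped genes, 16 had an entry, and the tendon gene Tnmd (chrX:133850758-133851057, plus strand) and the muscle myosin gene Myh8 (chr11:67276874-67277173, plus strand) are printed. Capitals mark matches, on either strand, to TATAAA (the TATA box), TAATCC (the core that Pitx-type homeodomains bind), TAATTA (a core of many homeodomains, Hox proteins among them) and GGTGTG (the core of a T-box site), each counted separately where they overlapped.
Tbx4: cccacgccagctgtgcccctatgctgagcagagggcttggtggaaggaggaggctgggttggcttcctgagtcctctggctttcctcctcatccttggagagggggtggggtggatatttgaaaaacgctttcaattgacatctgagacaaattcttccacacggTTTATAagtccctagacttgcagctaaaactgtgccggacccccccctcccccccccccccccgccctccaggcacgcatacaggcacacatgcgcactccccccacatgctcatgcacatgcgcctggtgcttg
Isl1: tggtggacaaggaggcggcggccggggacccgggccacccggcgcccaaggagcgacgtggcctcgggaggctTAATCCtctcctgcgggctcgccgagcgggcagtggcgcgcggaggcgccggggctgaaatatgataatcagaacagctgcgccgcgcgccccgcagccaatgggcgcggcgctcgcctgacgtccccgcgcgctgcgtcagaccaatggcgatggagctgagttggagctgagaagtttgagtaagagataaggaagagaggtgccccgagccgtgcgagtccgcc
Hoxc4: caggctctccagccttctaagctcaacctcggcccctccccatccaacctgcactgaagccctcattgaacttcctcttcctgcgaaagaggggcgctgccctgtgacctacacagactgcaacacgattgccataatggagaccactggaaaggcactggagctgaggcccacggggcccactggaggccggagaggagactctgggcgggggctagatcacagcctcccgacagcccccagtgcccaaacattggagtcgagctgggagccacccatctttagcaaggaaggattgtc
Tnmd: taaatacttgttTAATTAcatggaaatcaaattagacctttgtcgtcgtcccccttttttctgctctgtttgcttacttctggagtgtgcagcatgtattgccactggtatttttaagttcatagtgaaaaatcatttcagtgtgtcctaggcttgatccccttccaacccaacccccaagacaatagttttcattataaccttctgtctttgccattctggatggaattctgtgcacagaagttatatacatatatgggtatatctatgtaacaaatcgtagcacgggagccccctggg
Myh8: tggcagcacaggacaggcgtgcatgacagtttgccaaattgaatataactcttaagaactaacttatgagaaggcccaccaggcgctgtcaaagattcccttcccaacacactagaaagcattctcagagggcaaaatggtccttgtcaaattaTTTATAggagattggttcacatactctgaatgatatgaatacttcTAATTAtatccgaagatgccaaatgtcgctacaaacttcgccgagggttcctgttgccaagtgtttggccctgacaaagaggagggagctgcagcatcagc
Tbx4 held 1 TATAAA, on the reverse strand, Isl1 held 1 TAATCC, Tnmd held 1 TAATTA, Myh8 held 1 TAATTA and 1 TATAAA, and Hoxc4 held none of them. Over all 32851 promoters of the table, TATAAA occurred in 13.6%, TAATCC in 7.06%, TAATTA in 5.29% and GGTGTG in 19%. Among the 16 flipped genes with an entry, 4 held TATAAA, 1 held TAATCC, 3 held TAATTA and 2 held GGTGTG. CpG dinucleotides differed widely among the printed promoters, with 37 in Isl1, 9 in Hoxc4, 8 in Tbx4, 6 in Myh8 and 4 in Tnmd. These matches describe the letters of the windows only.

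Between E12.5 forelimb and E13.5 hindlimb, 266 of 18194 genes were called (1.46% of genes tested), 123 higher in the forelimb (0.676%) and 143 lower (0.786%). Calls required a 2-fold change or more together with a limma adjusted p under 0.001 over all genes. Pitx1 and Hoxc10 led the lower genes and Tbx5 the higher genes. Of the gene lists, 5 of 10 erythroid genes were higher in the younger forelimb, while 10 of 19 fibrous matrix, 7 of 21 cartilage, 4 of 10 tendon and 2 of 8 osteoblast genes were lower. Over all genes the median log2 difference was 0.05. The arrays of the groups did not overlap for 262 of the 266 called genes, beside 34.3% of all genes tested (24.5% higher and 9.78% lower in the forelimb). Relative to other scalings the balance of the calls was not fixed: 46.2% of calls were higher in the forelimb as deposited, 33.3% (85 higher, 170 lower) after quantile normalization and 60.7% (185 higher, 120 lower) with each array centred on its median, which moved the median of all genes to 0.138.

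Called genes were sorted by what the same-stage comparisons gave. Of the 266, 11 persisted (0.0605% of genes tested), meaning that they were called with the same sign at both E12.5 and E13.5, 15 were called with the same sign at 1 stage, 17 flipped (0.0934%), meaning that at least 1 same-stage comparison called them with the opposite sign, and 223 were called only across the day. Forelimb against hindlimb called 92 genes at E12.5 (0.506% of genes tested), 84 of them higher in the forelimb (0.462%) and 8 lower (0.044%). At E13.5 it called 52 (0.286%), 43 higher (0.236%) and 9 lower (0.0495%). Of the 114 genes called at either stage, 71 were not called across the day and are described as lost (0.39% of genes tested). The same-stage comparisons share arrays with the offset comparison, so these sorts are counts and not tests.

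The opposite offset, E13.5 forelimb against E12.5 hindlimb, shares no array with the comparison and carries the day in the other direction. It called 684 genes (3.76% of genes tested), 465 higher (2.56%) and 219 lower (1.2%) in the forelimb. Of the 266 genes called in E12.5 forelimb against E13.5 hindlimb, 12 were called with the same sign there, 170 with the turned sign and 84 were not called. Within a limb, the step from E12.5 to E13.5 called 493 genes in the forelimb (2.71%), 258 higher at E13.5 (1.42%) and 235 lower (1.29%). It called 354 in the hindlimb (1.95%), 282 higher (1.55%) and 72 lower (0.396%), and 152 of the 266 genes were called in both steps in the direction that the day would give.

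**Figure D1:**
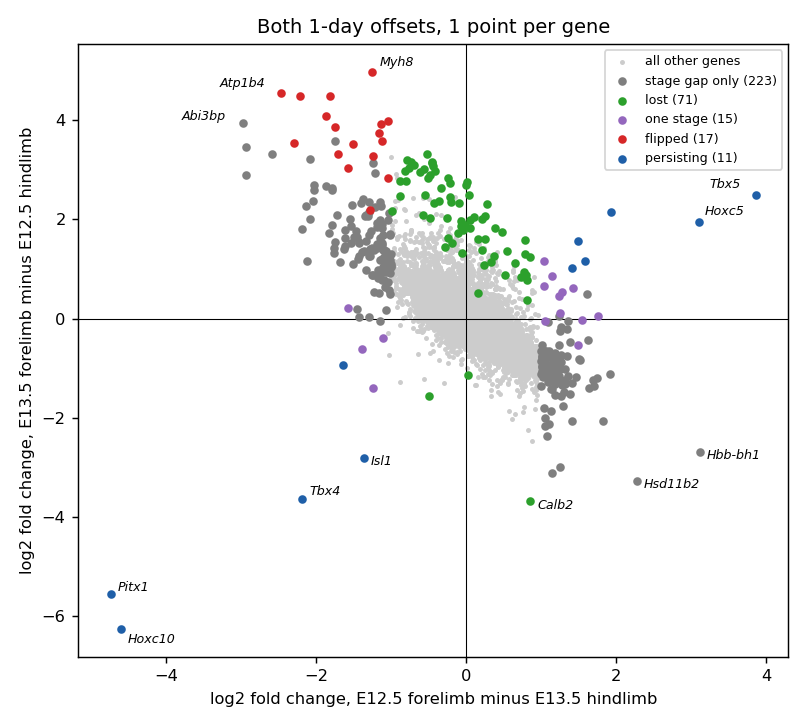
Log2 fold change of E12.5 forelimb minus E13.5 hindlimb (horizontal) against that of E13.5 forelimb minus E12.5 hindlimb (vertical), 1 point per gene, coloured by class with the number of genes in the key. The 11 persisting genes lie in the lower left and upper right, while the 17 flipped genes lie in the upper left, where the younger forelimb is lower and the older forelimb higher than the hindlimb.

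The limb type genes kept their direction whichever stages were compared. Tbx5, the T-box factor needed for the forelimb bud to form, had log2 intensities of 9.72, 9.68, 9.75, 9.67 and 9.77 in E12.5 forelimb and 5.80, 5.89, 5.83, 5.66 and 6.07 in E13.5 hindlimb. Every forelimb array lay more than 3 log2 units above every hindlimb array. The difference was 3.87 ± 0.16 (log2, SE; 14.6-fold; limma adjusted p = 1.11e-22), beside 3.67 at E12.5 and 2.68 at E13.5. Tbx5 was the called gene with the largest difference in favour of the forelimb, and its forelimb level was lower at E13.5, at 8.31 to 8.82.

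Pitx1, the homeodomain factor that gives the hindlimb its form, read 5.6, 5.02, 5.02, 5.12 and 5.52 in E12.5 forelimb and 10.09, 10.15, 9.93, 9.90 and 9.91 in E13.5 hindlimb. The 2 groups were separated by more than 4 log2 units, with a difference of -4.74 ± 0.15 (26.7-fold lower in the forelimb; limma adjusted p = 1.59e-26). Same-stage differences were -5.41 and -4.90. Hoxc10, a HoxC gene of lumbar and hindlimb level, read 4.67, 4.85, 4.66, 4.91 and 4.40 against 9.55, 9.11, 9.14, 9.33 and 9.41. Its difference of -4.61 ± 0.24 (24.4-fold; limma adjusted p = 8.94e-19) stood beside -5.46 and -5.41 at the same stages. For Pitx1, Hoxc10, Tbx4 and Isl1 alike, the offset difference was smaller in size than the difference at either same stage.

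Tbx4, the T-box factor of the hindlimb, read 6.82, 7.10, 7.09, 6.91 and 6.77 in E12.5 forelimb and 9.24, 9.16, 9.20, 8.91 and 9.12 in E13.5 hindlimb, a difference of -2.19 ± 0.10 (4.55-fold; limma adjusted p = 1.55e-21). At the same stages the difference was -2.67 and -3.15. Isl1, a LIM homeodomain factor that acts before the hindlimb bud appears, read 6.35, 5.80, 5.63, 5.37 and 6.11 against 7.49, 6.89, 6.76, 7.24 and 7.71. Its arrays did not overlap, but the gap was narrower than for Tbx4, at -1.37 ± 0.20 (2.58-fold; limma adjusted p = 3.34e-07), beside -2.17 and -2.02. The promoters of both genes are among those printed above. Ifi204, an interferon-inducible gene, was the other persisting gene of the hindlimb, at 4.47, 4.24, 3.81, 4.61 and 4.28 against 5.90, 5.81, 6.29, 5.63 and 5.99 (-1.64 ± 0.20; limma adjusted p = 4.83e-09). It was the persisting gene that the opposite offset did not call, at -0.94.

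The other 5 persisting genes of the forelimb came from the anterior part of the Hox clusters. Hoxc5 read 9.14, 8.13, 8.75, 8.89 and 9.25 in E12.5 forelimb and 5.67, 5.78, 5.75, 5.78 and 5.66 in E13.5 hindlimb, a difference of 3.10 ± 0.20 (8.59-fold; limma adjusted p = 7.13e-16). Its neighbour Hoxc4, whose promoter is printed above, read 8.81, 7.80, 8.04, 8.49 and 8.92 against 6.54, 6.54, 6.46, 6.33 and 6.50 (1.94 ± 0.20; limma adjusted p = 1.34e-10). Neither gene overlapped between the groups, and both varied by about 1 log2 unit among the forelimb arrays while the hindlimb arrays lay within 0.21. Replicates 1 and 5 were the highest forelimb arrays and replicate 2 the lowest for Hoxc5, Hoxc4, Hoxb5, Hoxb5os and Hoxb2 alike. Hoxb5 (1.49 ± 0.26), its antisense transcript Hoxb5os (1.59 ± 0.24) and Hoxb2 (1.42 ± 0.16) were each called at both stages too. Hoxb5 and Hoxb5os lie in antisense, and whether their probe sets tell the strands apart was not tested.

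**Figure D2:**
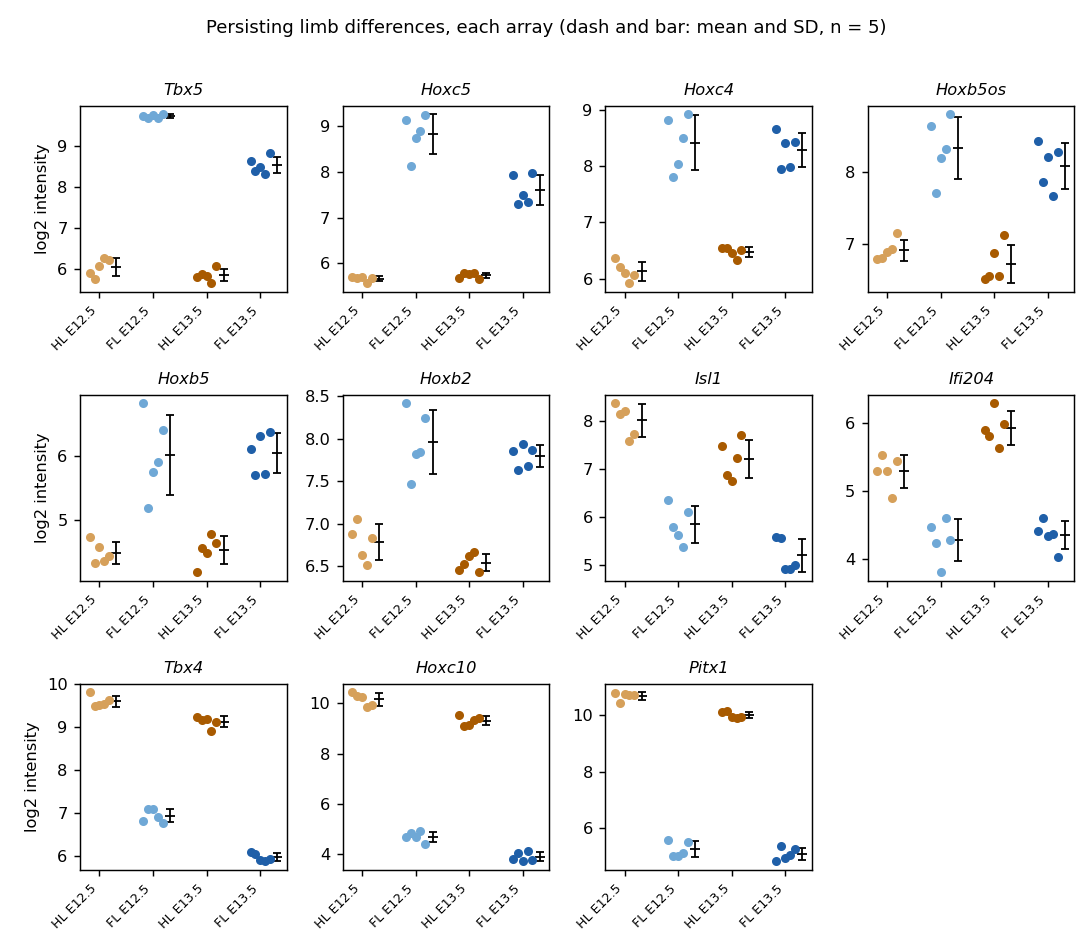
Log2 intensity of the 11 persisting genes on each array of the 4 groups (HL, hindlimb; FL, forelimb), with the mean and SD of 5 arrays as a dash and bar. For Tbx5 and Pitx1 the limbs stand apart at both stages, and the forelimb E12.5 arrays do not overlap the hindlimb E13.5 arrays for any of the 11.

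Over the whole list of 15 measured anterior Hox genes (groups 3 to 8), 5 were higher and 1 lower in E12.5 forelimb than E13.5 hindlimb, with a median log2 difference of 0.74. At the same stages 6 and 4 were called, each higher in the forelimb, with medians of 0.63 and 0.60. The lower gene was Hoxc8 (-1.15), which was below 0 but not called at E12.5 (-0.27) and E13.5 (-0.93). Of 3 measured posterior HoxC genes, Hoxc9 and Hoxc10 were lower. Hoxc9 read 5.70, 5.62, 5.97, 5.64 and 5.78 against 7.06, 6.81, 6.88, 6.96 and 7.19, a difference of -1.24 ± 0.10 (limma adjusted p = 1.78e-13). It was called at E12.5 (-1.77) and fell short of the fold threshold at E13.5 (-0.86).

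Besides Hoxc9, the genes called with the same sign at 1 stage, which were named after their values were seen, included Hoxc6 (1.28), Hoxb4 (1.15) and Hoxd1 (1.23) in the forelimb and Hoxa10 (-1.11) and Dmrt2 (-1.39) in the hindlimb. The probe sets of Hoxa10 read -0.52 and -1.7, the first being the brighter, and without E13.5 hindlimb replicate 1 it lay at -0.99 and was not called. Cited1, a transcriptional co-activator, read 9.06, 9.14, 9.24, 8.92 and 8.88 in E12.5 forelimb against 7.14, 7.38, 7.0, 7.35 and 7.54 in E13.5 hindlimb, and was 1.76 ± 0.12 higher (limma adjusted p = 5.70e-15). Its same-stage differences were 1.15 and 0.67. Alx1, a paired-type homeodomain factor of anterior mesenchyme, was 1.43 higher, beside 1.21 and 0.83. Ttr, the liver carrier of thyroid hormone, read 4.70, 6.06, 5.99, 6.69 and 5.54 in E12.5 forelimb against 4.06 to 4.53 in E13.5 hindlimb. The other groups lay at 3.93 to 4.67, so that 4 forelimb arrays stood well above all the rest and replicate 1 stood next to them. The probe sets of Ttr ran from 0.53 to 2.09, and Ttr was not called by its probe set of highest mean, at 0.53. Ttr was the call among 9 measured liver genes (median 0.06), whose mean log2 level ran from 3.92 to 4.56 in E12.5 forelimb and from 3.72 to 3.92 in E13.5 hindlimb, and the part of liver RNA in the Ttr value was not tested.

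The 17 flipped genes were all lower in E12.5 forelimb than in E13.5 hindlimb and higher in the forelimb where a same-stage comparison called them. They included matrix genes of cartilage (Comp, Acan, Epyc, Matn3), tendon (Tnmd, Thbs4), bone (Ibsp) and connective tissue (Aspn, Dpt), and the muscle myosin Myh8. The other 7 were Tceal7, Adgrg2, Abca8a, Lgals3, Ecrg4, Chodl and Atp1b4. Group means rose from E12.5 hindlimb through E12.5 forelimb and E13.5 hindlimb to E13.5 forelimb in 16 of the 17, beside 8.2% of all genes. That order is in part fixed by the way the class is defined. Adgrg2, an adhesion receptor, was the exception, with its highest mean in E13.5 hindlimb.

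Myh8, the perinatal myosin heavy chain, read 6.99, 7.84, 7.71, 7.91 and 8.11 in E12.5 forelimb and 8.94, 8.95, 8.61, 9.27 and 9.06 in E13.5 hindlimb. The older hindlimb was higher on every array, by 1.25 ± 0.21 (2.39-fold; limma adjusted p = 3.05e-06). Set against the hindlimb of its own stage (4.95 to 5.63) the same forelimb was 2.26 higher, and at E13.5 the forelimb, at 10.40 to 10.46, was 1.46 higher. Myh8, Tceal7, Thbs4 and Lgals3 were the flipped genes called in all 3 comparisons, that is, with 1 sign across the day and the other sign at both stages. Tceal7, a small nuclear protein gene of the TCEAL family, was 1.82 lower across the day, and 1.35 and 1.33 higher at the same stages.

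Aspn, which encodes the small proteoglycan asporin, read 5.15, 6.49, 6.13, 6.83 and 6.91 in E12.5 forelimb and 8.16, 8.75, 8.38, 8.66 and 8.62 in E13.5 hindlimb, a difference of -2.21 ± 0.23 (4.63-fold; limma adjusted p = 1.11e-10). At E12.5 it was 1.33 higher in the forelimb. Comp, a matrix protein of cartilage and tendon, read 4.89, 6.37, 5.62, 6.92 and 6.33 against 7.64, 8.34, 7.73, 8.39 and 7.39 (-1.87 ± 0.20; limma adjusted p = 5.87e-10), beside 1.27 at E12.5. Acan, the large aggregating proteoglycan of cartilage, read 7.14, 8.24, 7.74, 8.11 and 7.94 against 8.85, 9.49, 8.88, 9.61 and 8.54 (-1.24 ± 0.22; limma adjusted p = 1.44e-05). Forelimb and hindlimb arrays of the 3 genes did not overlap, and replicate 1 was the lowest of the E12.5 forelimbs in each.

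Tnmd, which encodes the tendon membrane protein tenomodulin, read 5.49, 6.06, 6.05, 5.81 and 6.18 in E12.5 forelimb and 6.81, 7.84, 7.81, 7.79 and 8.07 in E13.5 hindlimb. The difference was -1.75 ± 0.22 (limma adjusted p = 1.14e-08), against 1.36 in favour of the forelimb at E13.5. Ibsp, a sialoprotein of mineralising bone, lay at 3.05 to 3.36 in E12.5 forelimb and at 3.58, 5.44, 4.16, 5.26 and 3.59 in E13.5 hindlimb, so that 3 hindlimb arrays were raised well above the forelimbs and 2 were close to them. In E13.5 forelimb it lay at 6.33 to 7.89, which was 2.52 above the hindlimb of that stage. Atp1b4, a muscle protein of the Na,K-ATPase beta family, had the largest offset difference of the class, at 3.41, 3.80, 3.57, 4.12 and 3.76 against 6.07, 5.82, 6.39, 6.86 and 5.85 (-2.47 ± 0.15; limma adjusted p = 3.61e-17). Its E12.5 limbs did not differ by the test (0.33, limma adjusted p = 0.149), and its E13.5 forelimb was 1.75 higher.

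Like Adgrg2 (-0.11 at E13.5), Chodl, a lectin-like membrane protein, had E13.5 limbs that were close, at 8.75 to 9.34 in forelimb and 8.72 to 9.13 in hindlimb. It read 5.34, 6.76, 7.11, 7.26 and 6.62 in E12.5 forelimb, 2.3 below E13.5 hindlimb and 1.23 above E12.5 hindlimb. The group means of Dpt, Ecrg4, Abca8a, Thbs4, Lgals3, Epyc and Matn3 rose in the order given above, with offset differences from -1.71 to -1.04. Epyc and Matn3 lie beyond the 15 largest of the class and were named after their values were seen. Thbs4, a thrombospondin of tendon, was the flipped gene whose E12.5 forelimb and E13.5 hindlimb arrays overlapped. Epyc, the proteoglycan epiphycan, stood just inside the thresholds (-1.04, limma adjusted p = 0.000998) and missed them in 21 of the alternative fits. Without E12.5 forelimb replicate 1, Thbs4, Lgals3, Matn3 and Epyc lay between -0.92 and -0.85 and were not called, and without E13.5 hindlimb replicate 2 or 4 Ibsp lay at -0.91 or -0.95. The probe sets of Ibsp read -1.79 and -0.55.

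**Figure D3:**
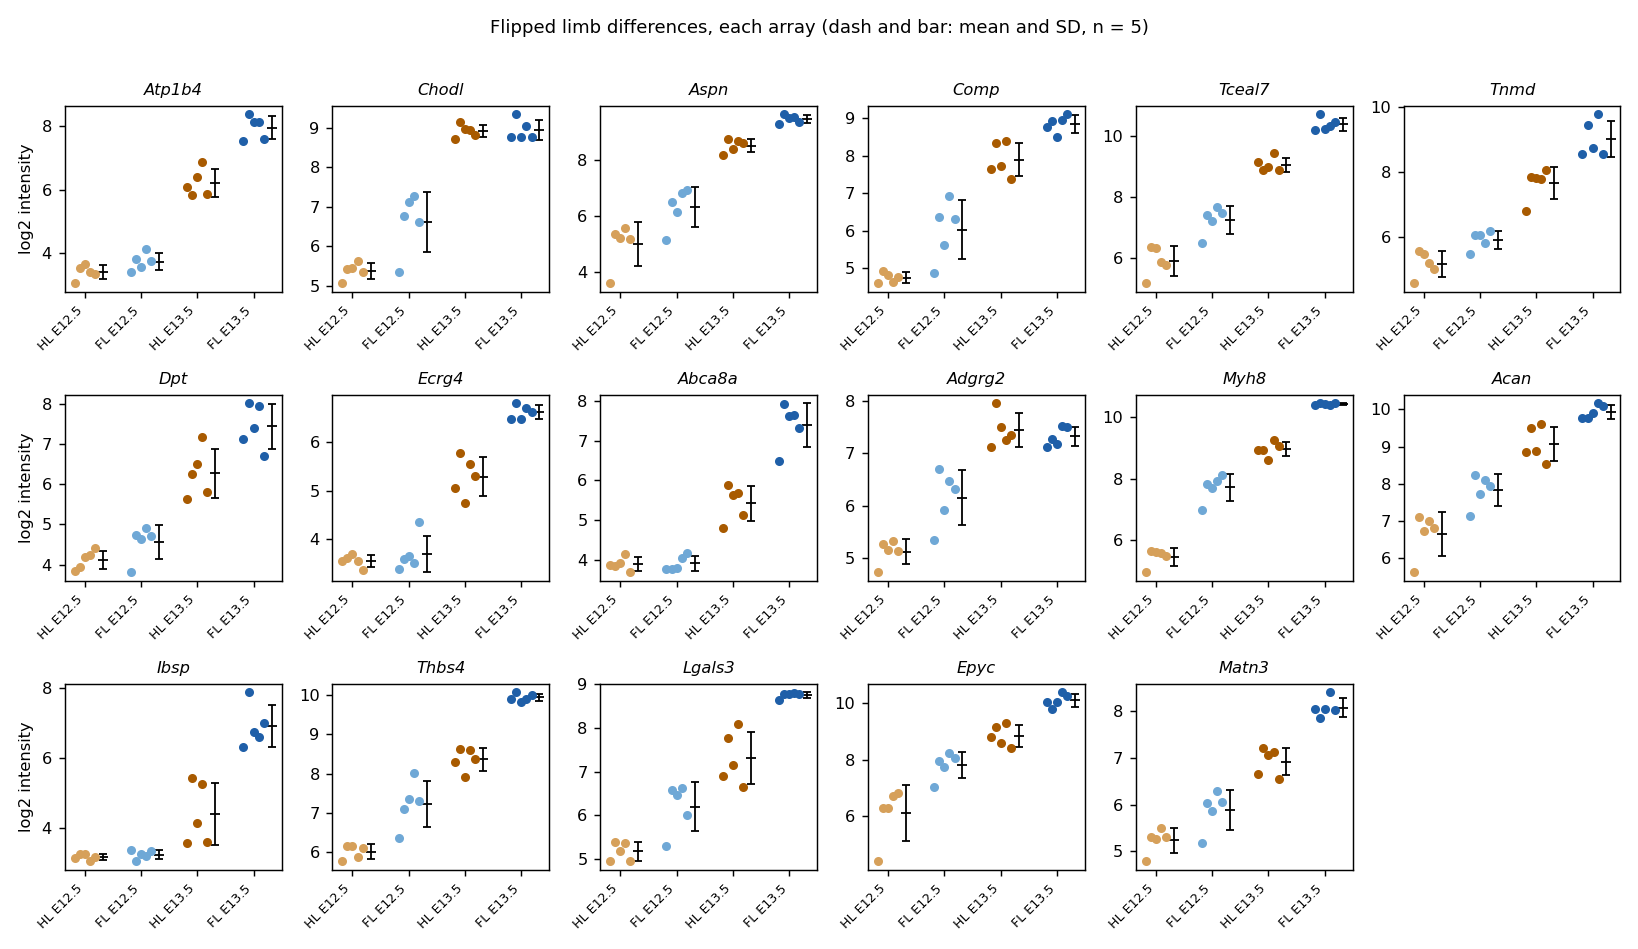
Log2 intensity of the 17 flipped genes on each array, groups ordered from E12.5 hindlimb (HL) to E13.5 forelimb (FL), with mean and SD of 5 arrays. In each panel the mean of E12.5 forelimb lies below that of E13.5 hindlimb, and in Myh8 and Tceal7 the forelimb also lies clear above the hindlimb at both stages.

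E12.5 forelimb replicate 1 was the lowest of its 5 arrays for 16 of the 17 flipped genes, beside 20% of all genes. E12.5 hindlimb replicate 1 was the lowest of its group for 13, beside 21.9%. At E13.5, replicate 1 was the lowest for 11 in forelimb, beside 18.7%, and for 7 in hindlimb, beside 24.7%. Without E12.5 forelimb replicate 1, 14 genes flipped, and without E12.5 hindlimb replicate 1, 13 did. The embryo or dissection behind these arrays was not tested.

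The lists of differentiated tissue, which hold 4 flipped cartilage genes among others, were called in 1 direction across the day and in the other at the same stages. Of 21 measured cartilage genes, 7 were called and all were lower in E12.5 forelimb than E13.5 hindlimb (median -0.82), while 4 were higher than in E12.5 hindlimb (median 0.48) and 2 were higher at E13.5 (median 0.41). Hapln1, which links aggrecan to hyaluronan, was 1.21 lower and Col11a1, a fibril collagen of cartilage, 1.31 lower. The early cartilage regulators Sox9, Sox5 and Sox6 were not called and lay at 0.02, 0.44 and 0.03. Of 10 tendon genes, 4 were called, all lower (Tnmd, Thbs4, Dcn and Egr1; median -0.56), while Scx, the early tendon regulator, lay at 0.46 and was not called. Of 8 osteoblast genes 2 were lower, Ibsp and Col1a1. In the opposite offset 13 cartilage, 7 tendon and 5 osteoblast genes were called, all higher in the forelimb, beside 2.56% of all genes.

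Contractile genes of muscle were counted in the same way. Of 26 measured members, 2 were called, both lower in E12.5 forelimb than E13.5 hindlimb, beside 0.786% of all genes. They were Myh8 and Neb (nebulin, -1.24), and the median of the list was -0.24. In the same-stage comparisons the medians were 1.00 at E12.5 and 0.81 at E13.5, with 4 and 3 genes called, all higher in the forelimb, and 24 of the 26 had a higher forelimb mean at both stages, beside 26.2% of all genes. The opposite offset called 22 of the 26, all higher in the forelimb, beside 2.56% of all genes. The regulators of the muscle lineage, 10 measured, gave no call by limma (median 0.26; 6 at an unadjusted p under 0.05, beside 48.6% of all genes), with Myod1 at 0.29 and Myog at 0.05. In whole limbs, fewer muscle cells and less RNA per muscle cell cannot be told apart.

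**Figure D4:**
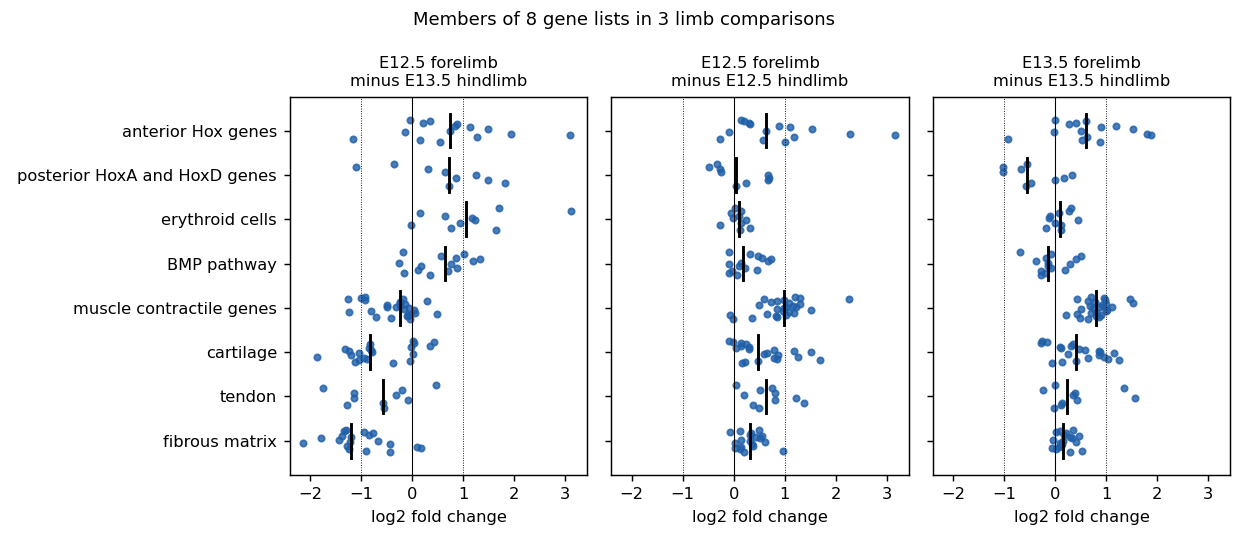
Log2 fold changes of the measured members of 8 gene lists, 1 point per gene, in the offset comparison (left) and the comparisons at E12.5 (centre) and E13.5 (right), with the list median as a bar and dotted lines at a fold change of 2. Cartilage, tendon and fibrous matrix medians lie below 0 on the left and above 0 in the other panels, while the anterior Hox median lies above 0 in all 3.

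The 71 lost genes included 4 of the 26 contractile genes of muscle, and the offset differences of the class lay between -0.99 and 0.86 (median -0.07). Csrp3, a muscle LIM protein of the sarcomere, read 7.0, 7.57, 7.81, 7.40 and 7.71 in E12.5 forelimb and 7.64, 7.27, 7.19, 7.82 and 7.60 in E13.5 hindlimb. The groups overlapped throughout, and the difference was -0.01 ± 0.19, with a 95% interval from -0.39 to 0.37, while the forelimb was 1.36 and 1.32 higher at the same stages. Myot (myotilin), Smpx and Tnnt3 (fast troponin T) lay at -0.45, -0.46 and -0.24 across the day and at 1.44, 1.6 and 1.09 at E12.5. Of the 71, 61 were higher in E13.5 forelimb than E12.5 hindlimb and 2 lower, beside 2.56% and 1.2% of all genes. The opposite offset equals the sum of the same-stage differences less the offset difference. That count is therefore in part fixed by the way the class is defined. Group means rose in the order given above for 40 of the 71. E12.5 forelimb replicate 1 was the lowest of its group for 52 of them, beside 20% of all genes, and without it 87 genes were lost.

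Among the lost genes outside muscle was Mgp, an inhibitor of matrix calcification, at 8.70, 9.78, 9.64, 9.85 and 9.65 in E12.5 forelimb and 9.69, 10.17, 9.61, 10.29 and 9.95 in E13.5 hindlimb (-0.42 ± 0.20, limma adjusted p = 0.0900), beside 1.47 and 1.09 at the same stages. Phex, an endopeptidase of bone cells, lay at 0.27 across the day, beside 1.42 and 1.16. Enpep, glutamyl aminopeptidase, read 5.58, 5.72, 5.61, 6.79 and 6.78 in E12.5 forelimb, in a lower set of 3 arrays and a higher set of 2, and lay at 0.01. Cpa3, a mast cell protease, lay at -0.45, beside 1.5 and 1.19. Hoxd8 (0.54) and Hoxb3 (0.85), which were chosen for naming after their values were seen, were the Hox genes of the anterior list among the lost.

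Calb2, the calcium-binding protein calretinin, behaved unlike the muscle genes. It read 7.27, 6.70, 6.97, 6.70 and 6.77 in E12.5 forelimb and 6.08, 5.98, 6.23, 5.87 and 5.95 in E13.5 hindlimb, so that every forelimb array was higher, by 0.86 ± 0.17 (limma adjusted p = 4.03e-05), short of the fold threshold. At E12.5 the hindlimb, at 9.21 to 9.90, was 2.59 above the forelimb, and at E13.5 the difference was -0.24. It was the lost gene with the largest same-stage difference.

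**Figure D5:**
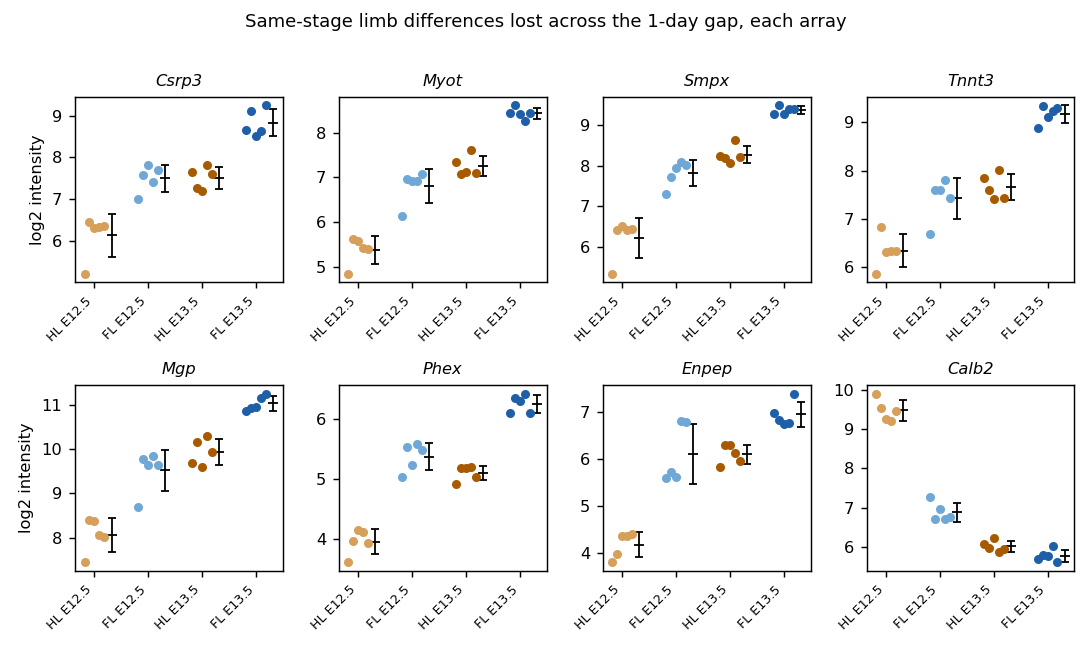
Log2 intensity of 8 lost genes on each array, with mean and SD of 5 arrays (HL, hindlimb; FL, forelimb). The E12.5 forelimb and E13.5 hindlimb arrays overlap for 7 of the genes, and those of Calb2 do not.

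The limb difference itself changed between E12.5 and E13.5 for 15 genes (0.0824% of genes tested), by the limma interaction at the same thresholds. The value of forelimb minus hindlimb was higher at E12.5 for 9 of them (0.0495%) and higher at E13.5 for 6 (0.033%). Ibsp had the largest change, from 0.06 at E12.5 to 2.52 at E13.5, and Calb2 went from -2.59 to -0.24. Cxcl13, a chemokine, went from 0.09 to 2.14 and Abca8a, a lipid transporter, from 0.02 to 1.98. Of the flipped genes, Abca8a, Atp1b4, Ecrg4 and Ibsp were among the 15. Fitted on the 4 limb groups of E12.5 and E13.5 with the replicate number as a block, 8 genes passed. Ibsp, Cxcl13, Atp1b4, Ecrg4, Sbspon, Npr3, Adgrb3 and Lsamp lost the call. Fitted on these 4 groups without the block 9 passed, and Abca8a, Ibsp, Cxcl13, Atp1b4, Ecrg4, Sbspon and Lsamp lost it. The other 13 flipped genes had limb differences at the 2 stages that were not called as unequal at these thresholds. Of these, Adgrg2 (1.03 and -0.11, a change of 1.14) and Chodl (1.23 and 0.02, a change of 1.22) missed on adjusted p alone. Their limma adjusted p was 0.00155 and 0.0361.

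The 223 genes called only across the day, 106 higher and 117 lower in E12.5 forelimb, were not called between the limbs at either stage, on fold or on adjusted p. Among the higher genes, the embryonic globin Hbb-bh1 had the largest difference. It read 12.59, 11.85, 12.24, 11.83 and 11.59 in E12.5 forelimb and 9.13, 8.45, 9.04, 9.14 and 8.76 in E13.5 hindlimb. The groups were separated by more than 2 log2 units, with a difference of 3.11 ± 0.14 (8.65-fold; limma adjusted p = 2.38e-21), against 0.15 and 0.28 at the same stages. Hba-x was 1.70 higher and Slc4a1, the anion exchanger of red cells, 1.64 higher. Of 10 measured erythroid genes, 5 were called, all higher (Hbb-bh1, Hba-x, Slc4a1, Alas2 and Rhag; median 1.06), and the mean log2 level of the list ran from 7.67 to 8.43 on the E12.5 forelimb arrays and from 6.70 to 7.04 on the E13.5 hindlimb arrays. Gata1 (-0.03) and Hbb-y (0.15) were not called. The amount of blood in the limbs and its part in these values were not tested.

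Some genes of the distal limb and of limb outgrowth were also higher in the younger forelimb. Of 9 measured posterior HoxA and HoxD genes, Hoxd12, Hoxd11 and Hoxd9 were higher and Hoxa10 lower (median 0.73), while at the same stages the medians were 0.04 and -0.56. Hoxd12 read 8.79, 9.10, 9.19, 8.73 and 8.60 against 7.15, 7.15, 6.99, 6.68 and 7.34, a difference of 1.82 ± 0.19 (limma adjusted p = 2.28e-10), and lay at 0.23 and -0.48 at the same stages. Hoxd11 was 1.5 higher, beside 0.67 at E12.5, and every E12.5 forelimb array exceeded every E12.5 hindlimb array for it. Hand2, a bHLH factor of posterior mesenchyme, was 1.41 ± 0.11 higher, at 8.54 to 8.89 against 6.97 to 7.57, though its probe set of highest mean gave 0.81, which was not called.

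Fgf8, the growth factor of the apical ectodermal ridge, read 6.13, 5.88, 6.12, 5.35 and 5.53 in E12.5 forelimb and 4.89, 4.22, 4.31, 4.67 and 4.63 in E13.5 hindlimb, and was 1.26 ± 0.23 higher (limma adjusted p = 1.39e-05), beside 0.00 and -0.31 at the same stages. It was called with Bmp4 among 14 ridge genes. Of 14 genes of the BMP pathway, 3 were called, all higher (median 0.64): the ligand Bmp4 (1.01) and the secreted antagonists Grem1 (1.34) and Nog (1.19). Grem1 read 7.92, 7.51, 8.58, 8.20 and 7.78 against 7.05, 6.87, 7.05, 5.57 and 6.74, with hindlimb replicate 4 well below the others. Bmp4 stood at the fold threshold and lost its call without E12.5 forelimb replicate 1 or 3 or hindlimb replicate 1 or 3. Of the 26 mesenchyme transcription factors Hand2 and Alx1 were higher, and limma called none of the measured genes of the hedgehog (11), WNT (20), FGF (11), retinoic acid (9) and joint (9) lists, with medians of -0.22, 0.14, 0.01, 0.14 and 0.14. At an unadjusted p under 0.05 these lists held 7, 11, 4, 7 and 5 genes, beside 48.6% of all genes.

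Fibrous matrix genes were called lower in the younger forelimb. Of 19 measured, 10 were called, all lower (median -1.19), beside no call at either same stage by limma (medians 0.32 and 0.15), where 11 and 8 genes had an unadjusted p under 0.05, all higher in the forelimb, beside 24% and 17.4% of all genes. Postn, which encodes periostin, read 10.31, 10.17, 10.16, 10.58 and 10.85 in E12.5 forelimb and 12.56, 12.57, 12.33, 12.69 and 12.60 in E13.5 hindlimb, a difference of -2.14 ± 0.21 (4.40-fold; limma adjusted p = 3.32e-11). Same-stage differences were 0.02 and 0.10, and the opposite offset gave 2.26. Col6a3, a chain of microfibrillar collagen VI, was 1.79 lower and Fn1, fibronectin, 1.43 lower, though Fn1 lay at -0.6 and was not called by its probe set of highest mean. Abi3bp, a matrix-binding protein, had the largest difference of the genes lower only across the day, at 3.67 to 4.03 against 6.63 to 7.26 (-2.98 ± 0.12; limma adjusted p = 1.14e-22).

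Meg3, an imprinted non-coding RNA, read 7.24, 7.32, 7.12, 7.66 and 7.35 in E12.5 forelimb and 9.61, 9.40, 9.22, 9.19 and 9.40 in E13.5 hindlimb (-2.03 ± 0.09; limma adjusted p = 1.55e-21). Its 11 probe sets all lay lower in the forelimb, from -3.10 to -0.83. Meg3 and Plagl1 (-1.01) were the calls among 12 measured imprinted genes. Plagl1 stood at the fold threshold and lost its call in 8 alternative fits, with values from -0.99 to -0.49. Hsd11b2, which inactivates glucocorticoids, was 2.28 higher in E12.5 forelimb, at 8.18 to 9.26 against 6.06 to 6.61.

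Some genes called only across the day were read unequally by their probe sets. Of 96 such genes with more than 1 probe set, all probe sets ran in the direction of the call in 89 and disagreed in 7, and each passed a fold of 2 in 24. The probe sets of the splicing factor Rbm39, chosen for naming after its values were seen, ran from -3.31 to 0.15. All 5 persisting and all 5 flipped genes with more than 1 probe set had theirs in 1 direction. Each probe set passed a fold of 2 in all 5 of these persisting genes and in 2 of the flipped genes. Matn3 and Ibsp were not called by their probe set of highest mean, at -0.67 and -0.55. The log2 ratio of the 3′ to the 5′ control probe sets of Actb was 0.20 to 0.23 on the E12.5 forelimb arrays and 0.36 to 0.62 on the E13.5 hindlimb arrays, while that of Gapdh lay between -0.06 and 0.07 in both groups. This measure of RNA quality moved with stage, and its part in these calls was not tested.

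Markers of other cell types that a dissected limb holds were counted too, beside 1.46% of all genes called. Limma called none of 10 endothelial, 13 macrophage and 5 Schwann cell genes (medians 0.06, -0.01 and -0.17), of which 3, 5 and 0 had an unadjusted p under 0.05. It called none of 21 genes of mitosis and DNA replication (median 0.29), of which 15 were higher and 2 lower at an unadjusted p under 0.05, beside 5735 higher and 3116 lower of all 18194 genes. Of 14 surface ectoderm genes Krt1, a keratin of the differentiating epidermis, was 1.35 lower. Of 16 neural genes, Stmn2, a growth cone protein, was 1.27 higher and Nefl, a neurofilament chain, 1.23 lower, a call lost in 10 alternative fits, and the mean log2 level of the list ran from 5.09 to 5.32 in E12.5 forelimb and from 5.13 to 5.31 in E13.5 hindlimb. Klhl41, a sarcomere protein, ran against the other muscle genes: it read 7.59, 8.01, 8.04, 8.28 and 8.37 in E12.5 forelimb against 6.60, 6.77, 6.59, 5.70 and 6.55 in E13.5 hindlimb, and was 1.61 ± 0.24 higher (limma adjusted p = 3.27e-07), beside 1.05 and 1.07 at the same stages.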

How the data were processed

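Limbs were dissected from FVB embryos, total RNA was labelled in 2 cycles, and 51 Affymetrix arrays were scanned. The authors ran RMA with its defaults (version not given in the sources used here), and the deposited table holds linear intensities, of which log2 was taken. The plan had taken them to be log2 values already. Of 45101 probe sets, 34958 with exactly 1 gene symbol were averaged on the log2 scale into 18194 genes, and 932 with several symbols and 9211 without an entry were left out. The log2 intensities ranged from 2.29 to 14.79. Groups followed the array titles.

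All 51 arrays in 14 groups were fitted with limma 3.58.1 in R 4.3.3 (37 residual degrees of freedom, empirical Bayes), with Benjamini-Hochberg adjustment over all genes and calls at a fold of 2 and an adjusted p under 0.001. With 5 arrays a group, precision is set by the number of arrays. On simulated data for this comparison over 18194 genes, 100% of 100 genes changed 2.5-fold and 100% of 100 changed 4-fold were called, and 0 unchanged genes. Unchanged genes were given equal group means and independent noise, so few false calls could arise at a fold of 2. Effects of litter, RNA quality or a whole array were not simulated, so the result does not cover them.

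Named are the 15 highest and 15 lowest called genes without overlap, up to 15 persisting genes in each direction, up to 15 flipped genes, the 10 largest lost differences, the limb type genes and up to 4 called genes of each of 28 lists (370 genes, 347 measured, 23 not analysed here), or the largest where none was called. Not all were printed, and other genes are said to be chosen after their values were seen. Members and lists were chosen with earlier results of these data known. Alternatives were the groups fitted, labels, scaling, probe sets, a filter on dim genes, thresholds, a replicate block and leaving out arrays. Figures were drawn with matplotlib.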

Additional observations from a re-analysis of the deposited data

Results flagged for a closer look

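Single arrays stood apart from the other 4 of their group in 11 cases by Dixon's criterion, which chance meets in about 1 in 20 groups. It was applied to E12.5 forelimb and E13.5 hindlimb for every named gene with a call, so many groups were looked at. Whether the 11 cases exceed the number that chance would give was not tested. In E13.5 hindlimb, replicate 4 was low for Klhl41 (5.70, the others 6.55 to 6.77), Grem1 (5.57, the others 6.74 to 7.05) and Plagl1 (9.71, the others 10.28 to 10.52). Replicate 1 of that group was low for Tnmd (6.81, the others 7.79 to 8.07) and high for Hoxd9 (8.77, the others 8.44 to 8.53), and replicate 5 was low for Col11a1 (10.95, the others 11.19 to 11.26). In E12.5 forelimb, replicate 1 was low for Dpt (3.81, the others 4.63 to 4.92) and Nog (7.31, the others 7.91 to 8.13). Replicate 5 was high for Ecrg4 (4.35, the others 3.39 to 3.66) and low for Hoxd9 (9.63, the others 9.83 to 9.85), and replicate 4 was high for Hoxa10 (7.86, the others 7.51 to 7.61).

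The limb difference at E12.5 minus that at E13.5 passed the limma interaction test for 15 genes, which were named for passing it. It was positive for A2m (1.56), Trhde (1.5), Sbspon (1.36), Cd83 (1.33), Col14a1 (1.25), Npr3 (1.25), Adgrb3 (1.23), Vnn1 (1.22) and Lsamp (1.07). It was negative for Ibsp (-2.46), Calb2 (-2.35), Cxcl13 (-2.05), Abca8a (-1.96), Atp1b4 (-1.42) and Ecrg4 (-1.18). The sign of the measured limb difference was opposite at the 2 stages for A2m (1.12 and -0.44), Trhde (0.69 and -0.82), Adgrb3 (0.67 and -0.57), Cd83 (0.99 and -0.33), Lsamp (0.71 and -0.36) and Npr3 (1.22 and -0.04).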

How the results depend on the processing

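As fitted, 123 genes were higher and 143 lower across the day, 11 persisted, 17 flipped, 71 were lost and 15 passed the interaction. Leaving out 1 array at a time gave 104 to 134 higher, 129 to 166 lower, 10 to 11 persisting, 13 to 18 flipped, 57 to 87 lost and 14 to 24 interaction genes, the 24 without E12.5 forelimb replicate 1, and 645 to 705 genes in the opposite offset, 442 to 543 in the forelimb step and 317 to 380 in the hindlimb step. Fitting the 4 limb groups of E12.5 and E13.5 alone gave 11 flipped and 9 interaction genes. Source labels in place of titles gave 0 persisting, 9 flipped, 12 lost and 9 interaction genes. Median centring gave 185 higher genes, and genes of mean log2 intensity 6 or more gave 7 interaction genes. An adjusted p under 0.05 gave 28 interaction genes. Without the fold threshold there were 2988 higher, 1155 lower, 25 persisting, 108 flipped, 342 lost and 32 interaction genes, 5010 in the opposite offset, 5272 in the forelimb step and 3753 in the hindlimb step. With the replicate number as a block, fitted on those 4 groups alone, there were 123 higher and 143 lower genes, 11 persisting, 17 flipped, 79 lost and 8 interaction genes. After group means were removed, same-numbered forelimb and hindlimb arrays correlated from 0.071 to 0.347 at E12.5 and from 0.032 to 0.254 at E13.5, and from -0.239 to 0.076 across the stages, which are different litters. Limbs of a stage may share embryos, but the labels do not tie the numbers to embryos, not every array correlated best with its own number, and the numbers were not taken as pairs. Of 3644 fits of single genes under the alternatives, 3496 kept the call or its absence, 146 lost it, 2 gained it and 0 turned sign, with Epyc (21 fits) and Nefl (10) losing it most often. The causes were not tested. Arrays give no counts, so dim genes such as Ibsp in E12.5 limbs, near the lowest log2 intensities measured, limit the fold changes that could be seen.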
